A study of Mus musculus with 12 samples.

Results

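The NF-kB subunits and their feedback inhibitors are 10 genes, taken by symbol from the deposited gene tables, which list 41325 genes. The 5 subunit genes are Nfkb1, Nfkb2, Rel, Rela and Relb. The 5 inhibitor genes are Nfkbia, Nfkbib, Nfkbie, Nfkbiz and Tnfaip3. All 10 passed the filter on low counts and were tested among 16456 genes. The 12 liver samples came from wild-type C57BL/6J mice in every group, and each gave 1 poly(A) RNA-seq library. The control group held 4 livers of mice given vehicle. The NASH vehicle group held 4 livers of mice fed CDAHFD, a choline-deficient, amino acid-defined, high-fat diet that produces steatohepatitis, and given vehicle. The CDDO-Me group held 4 livers of mice on that diet treated orally for 8 weeks with 10 mg/kg CDDO-Me (bardoxolone methyl). Sex and age are not given in the labels, and the diet of the control mice is not named there. The series asks how CDDO-Me, a synthetic triterpenoid known to activate the transcription factor NRF2 and described as an inhibitor of the kinase that releases NF-kB, affects the diseased liver.

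NF-kB proteins are dimeric transcription factors that wait in the cytoplasm bound to IkB proteins. In the canonical branch, signals from TNF, IL-1 and Toll-like receptors activate the IKK kinase complex, IkB is phosphorylated and degraded, and dimers such as p50 with RelA enter the nucleus. In the non-canonical branch, the kinase NIK and IKKα drive the processing of the Nfkb2 product p100 to p52, which partners RelB. NF-kB then transcribes its own brakes, among them IkBα and A20, and in liver both Kupffer cells or recruited macrophages and hepatocytes use the pathway. Activity is set by protein release and transport, which messenger RNA levels do not measure.

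Promoter windows of the 250 bases before a start site were available from RefSeq (GRCm38.p6) for 7 of the 10 genes, and matches are shown because several of the genes, Nfkbia and Tnfaip3 among them, are known as NF-kB targets themselves. Windows for Nfkb1, Relb and Nfkbiz were not matched. The kB consensus, the binding motif of NF-kB dimers, was searched on both strands and occurred in windows of 5 of the 7 genes, against 4.46% of 27025 genes with a window. The 5 genes were Nfkb2, Rel, Nfkbia, Nfkbie and Tnfaip3, and the windows of Rela and Nfkbib held no match. Stretches of 30 bases around some matches are printed 5′ to 3′ on the strand of the gene, with the matching bases in capitals. Not printed are a further match in the Tnfaip3 window, 125 to 116 bases before the start, and those in further Nfkb2 windows. Such a match is a description of the letters, not a measured binding site, and the motif was chosen with earlier results in view.
Nfkb2, chr19:46304688-46304717, plus strand, 49 to 20 bases before the start: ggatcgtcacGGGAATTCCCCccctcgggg
Nfkb2, chr19:46304707-46304736, plus strand, 30 to 1 bases before the start: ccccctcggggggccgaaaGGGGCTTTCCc
Rel, chr11:23771042-23771071, minus strand, 102 to 73 bases before the start: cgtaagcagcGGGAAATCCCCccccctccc
Nfkbia, chr12:55492657-55492686, minus strand, 39 to 10 bases before the start: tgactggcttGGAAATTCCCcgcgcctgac
Nfkbie, chr17:45555584-45555613, plus strand, 116 to 87 bases before the start: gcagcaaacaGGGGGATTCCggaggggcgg
Tnfaip3, chr10:19015411-19015440, minus strand, 30 to 1 bases before the start: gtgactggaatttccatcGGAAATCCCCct
The whole Nfkbia window, chr12:55492648-55492897 on the minus strand, is given for context because Nfkbia encodes the best known feedback inhibitor, with the match in capitals: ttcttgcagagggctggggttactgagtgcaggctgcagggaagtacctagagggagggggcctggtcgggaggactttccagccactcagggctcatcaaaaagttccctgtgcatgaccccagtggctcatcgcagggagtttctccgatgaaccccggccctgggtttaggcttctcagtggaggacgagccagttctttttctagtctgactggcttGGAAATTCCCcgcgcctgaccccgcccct

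Libraries held 28161057 to 33852338 gene reads, and no library was a copy of another. The tissue matched its label, with 11 hepatocyte markers summing to 52764 to 93352 TPM (transcripts scaled to a fixed sum per library) in the 12 libraries. Levels are given as CPM, which are read counts relative to TMM-scaled library size, and as the deposited TPM, which are also per length and so allow levels of different genes to be set side by side. Control liver 3 stood apart by 349 TPM of smooth muscle markers, and CDDO-Me liver 4 had 210.0 TPM of them. The reads of the 10 genes over all libraries ranged from 3007 for Rel to 26050 for Rela, and 99.3% or more of each gene's reads were unique. Differences were tested by quasi-likelihood in edgeR and adjusted by Benjamini-Hochberg over all 16456 genes at 0.05, and errors are SD over 4 livers for levels and SE for log2 fold changes. The labels number the samples of a group without saying that each came from a mouse of its own, so p-values measure the spread between these samples, which may be technical.

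In NASH vehicle livers, 9 of the 10 genes were higher than in control livers and none was lower, also at an unadjusted p under 0.05 or by DESeq2, with a median log2 fold change of 1.22. Of all tested genes, 29.6% were higher by that call and 59.7% changed in either direction, and their median was -0.0095. All 5 subunits rose. Relb rose most, 12.4-fold, followed by Tnfaip3 with 5.66-fold, Nfkbie with 4.71-fold and Nfkb2 with 4.16-fold. Nfkbib was the gene not called. The 4 NASH vehicle livers did not overlap with the 4 control livers for 9 genes, against 27.0% of all genes non-overlapping in that direction. The scaling matters for the size of these values. With library totals in place of TMM, the median of all genes moved to 0.62 and that of the 10 genes to 1.84, and the share of called genes that were higher went from 49.6% to 88.2%.

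CDDO-Me livers had lower levels than NASH vehicle livers for 6 of the 10 genes, and none was higher. The count of lower genes was 7 at an unadjusted p under 0.05, 7 by DESeq2 and 6 by limma-voom, and none was higher there either. The 6 genes of the main count were all 5 subunits and the inhibitor Nfkbie, with decreases from 1.22-fold for Rela to 1.83-fold for Nfkbie. Nfkbia, Nfkbib, Nfkbiz and Tnfaip3, the other 4 inhibitors, did not pass the test. By that call 7.24% of all tested genes were lower and 16.6% changed in either direction, and the median log2 fold change was -0.44 for the 10 genes and -0.0061 for all genes. The CDDO-Me and NASH vehicle livers did not overlap for 6 genes, against 10.2% of all genes in that direction. Leaving out 1 library at a time left 4 to 6 genes called lower, and 0 were called in edgeR when the change had to exceed 1.5-fold (3 at an unadjusted p under 0.05), against 0.711% of all genes.

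Against control livers, CDDO-Me livers had higher levels of 7 of the 10 genes and lower levels of none. The 7 were Nfkb1, Nfkb2, Relb, Nfkbia, Nfkbie, Nfkbiz and Tnfaip3. By that call 26.2% of all tested genes were higher, and 22.6% did not overlap in that direction, as was the case for those 7 genes. The median log2 fold change was 0.92 for the 10 genes and 0.033 for all genes. Rel, Rela and Nfkbib did not pass the test. This comparison shares its livers with the other two, so the 3 sets of values are not independent of each other. Without control liver 3 and CDDO-Me liver 4, the counts were 9 higher in NASH, 6 lower with CDDO-Me and 6 higher against control, where Nfkb1 was no longer called (adjusted p = 0.0623).

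Intron reads, a smaller measure that comes largely from unspliced RNA, could be tested for 8 of the 10 genes. By these reads 4 genes were called in NASH vehicle against control livers, all higher (Nfkb1, Relb, Nfkbie and Nfkbiz), where 35.8% of all genes tested that way changed in either direction. Nfkb2 was not among them, with a log2 fold change of 0.07 by intron reads (adjusted p = 0.883) against 2.06 by total reads. The control livers held 116 Nfkb2 intron reads in all. Psd overlaps Nfkb2 on the opposite strand, and its part in these intron reads was not tested. CDDO-Me against NASH vehicle livers gave 0 called genes in edgeR (3 lower at an unadjusted p under 0.05), against 4.82% of all genes. CDDO-Me against control gave 4, all higher (Nfkb1, Relb, Nfkbia and Nfkbiz), against 25.8%. Relb had the widest intron change in NASH, with a log2 fold change of 4.64 (adjusted p = 6.2e-09). The size of that change rests on few reads, 12 in all control livers together against 610 in the NASH vehicle livers. With CDDO-Me against NASH vehicle the Relb intron change was -0.73 (adjusted p = 0.0964).

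**Figure D1:**
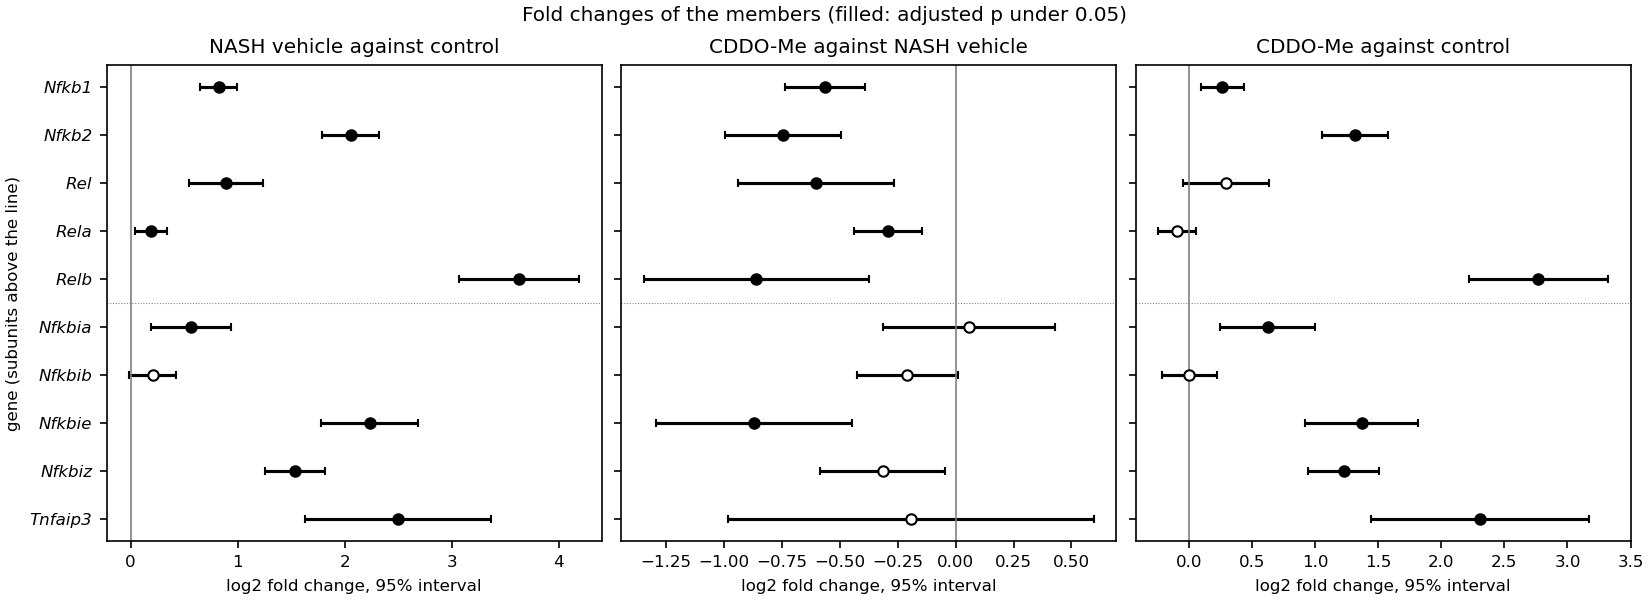
Log2 fold changes of the 10 genes in the 3 comparisons, with bars for the 95% interval; the zero line marks equal levels. All 10 points lie above zero in NASH vehicle against control, and 9 of 10 lie below zero in CDDO-Me against NASH vehicle.

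Nfkb1 lies on chr3:135584655-135691547 (GRCm38, minus strand) and encodes p105, the precursor of p50, which is the usual partner of RelA. Control livers 1 to 4 had 36.4, 30.9, 34.2 and 34.1 CPM. The NASH vehicle values were 53.3, 61.8, 62.8 and 62.4 CPM, and the CDDO-Me values were 41.4, 41.0, 37.2 and 43.1 CPM. The 3 groups did not overlap, with CDDO-Me livers between the others. Nfkb1 rose in NASH by 0.83 ± 0.08 on the log2 scale (adjusted p = 2e-06). CDDO-Me livers were 1.48-fold lower than NASH vehicle livers, a log2 change of -0.56 ± 0.08 (adjusted p = 0.00047), and remained 0.26 ± 0.08 above control (adjusted p = 0.0155, or 0.0533 without control liver 2).

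Nfkb2, on chr19:46304737-46312090 (plus strand), encodes p100, at once the precursor of p52 and an IkB-like inhibitor of RelB. Control livers had 10.8, 11.6, 13.6 and 10.2 CPM. NASH vehicle livers had 39.1, 53.0, 48.3 and 52.1 CPM and CDDO-Me livers 30.5, 28.8, 24.6 and 31.0 CPM. Every NASH vehicle liver was above every CDDO-Me liver, and every CDDO-Me liver was above every control liver. The log2 fold change was 2.06 ± 0.12 in NASH (adjusted p = 4.18e-08), -0.75 ± 0.12 for CDDO-Me against NASH vehicle (adjusted p = 0.00092) and 1.31 ± 0.12 for CDDO-Me against control (adjusted p = 1.91e-06). Psd overlaps Nfkb2 on the opposite strand with a mean of 221.9 reads per library, and the strand setting of the counts is not given in the sources used here.

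Rel, on chr11:23736847-23770970 (minus strand), encodes c-Rel, a subunit best known in lymphoid and myeloid cells. It had 4.72, 7.29, 5.25 and 5.41 CPM in control livers. NASH vehicle livers had 10.3, 9.97, 10.8 and 10.95 CPM and CDDO-Me livers 7.18, 5.79, 6.28 and 8.43 CPM. NASH vehicle livers were above all others, while control and CDDO-Me livers overlapped. Rel rose in NASH by 0.89 ± 0.16 (adjusted p = 0.000295) and was 1.52-fold lower with CDDO-Me, a log2 change of -0.60 ± 0.16 (adjusted p = 0.019). That second call was lost without NASH vehicle liver 3 or 4 or CDDO-Me liver 2 or 3, with adjusted p from 0.0533 to 0.0637. Against control the CDDO-Me difference was 0.29 with a 95% interval from -0.05 to 0.63 (adjusted p = 0.146), and without control liver 2 it was called (adjusted p = 0.0349).

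Rela, on chr19:5637483-5648130 (plus strand), encodes p65, the main activating subunit of the canonical branch. Its levels were 62.8, 68.0, 70.0 and 69.0 CPM in control livers. They were 79.7, 76.5, 72.5 and 80.0 CPM in NASH vehicle livers and 61.7, 66.2, 61.4 and 62.8 CPM in CDDO-Me livers. Rela had the smallest changes among the called subunits. It rose in NASH by 0.19 ± 0.07 (adjusted p = 0.0258) and was 1.22-fold lower with CDDO-Me than in NASH vehicle livers, a log2 change of -0.29 ± 0.07 (adjusted p = 0.0114). The rise was not called without control liver 1 or NASH vehicle liver 1 or 4, with adjusted p from 0.0594 to 0.0788. Against control the CDDO-Me value was -0.10 ± 0.07 (adjusted p = 0.257). It became 0.37 with library totals in place of TMM and was called higher there.

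Relb, on chr7:19606217-19629438 (minus strand), encodes the partner of p52 in the non-canonical branch. It was low in control livers, with 1.31, 1.57, 3.59 and 2.19 CPM. NASH vehicle livers had 21.6, 29.9, 27.2 and 29.3 CPM and CDDO-Me livers 15.9, 15.3, 11.5 and 16.7 CPM. The groups did not overlap. The log2 fold change was 3.63 ± 0.26 in NASH (adjusted p = 2.38e-07) and 2.77 ± 0.26 for CDDO-Me against control (adjusted p = 2.69e-06). CDDO-Me livers were 1.81-fold lower than NASH vehicle livers, a log2 change of -0.86 ± 0.22 (adjusted p = 0.0204). Relb lost this call without NASH vehicle liver 2, 3 or 4 or CDDO-Me liver 2 or 3, with adjusted p from 0.0533 to 0.0719, and kept its direction in each case.

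**Figure D2:**
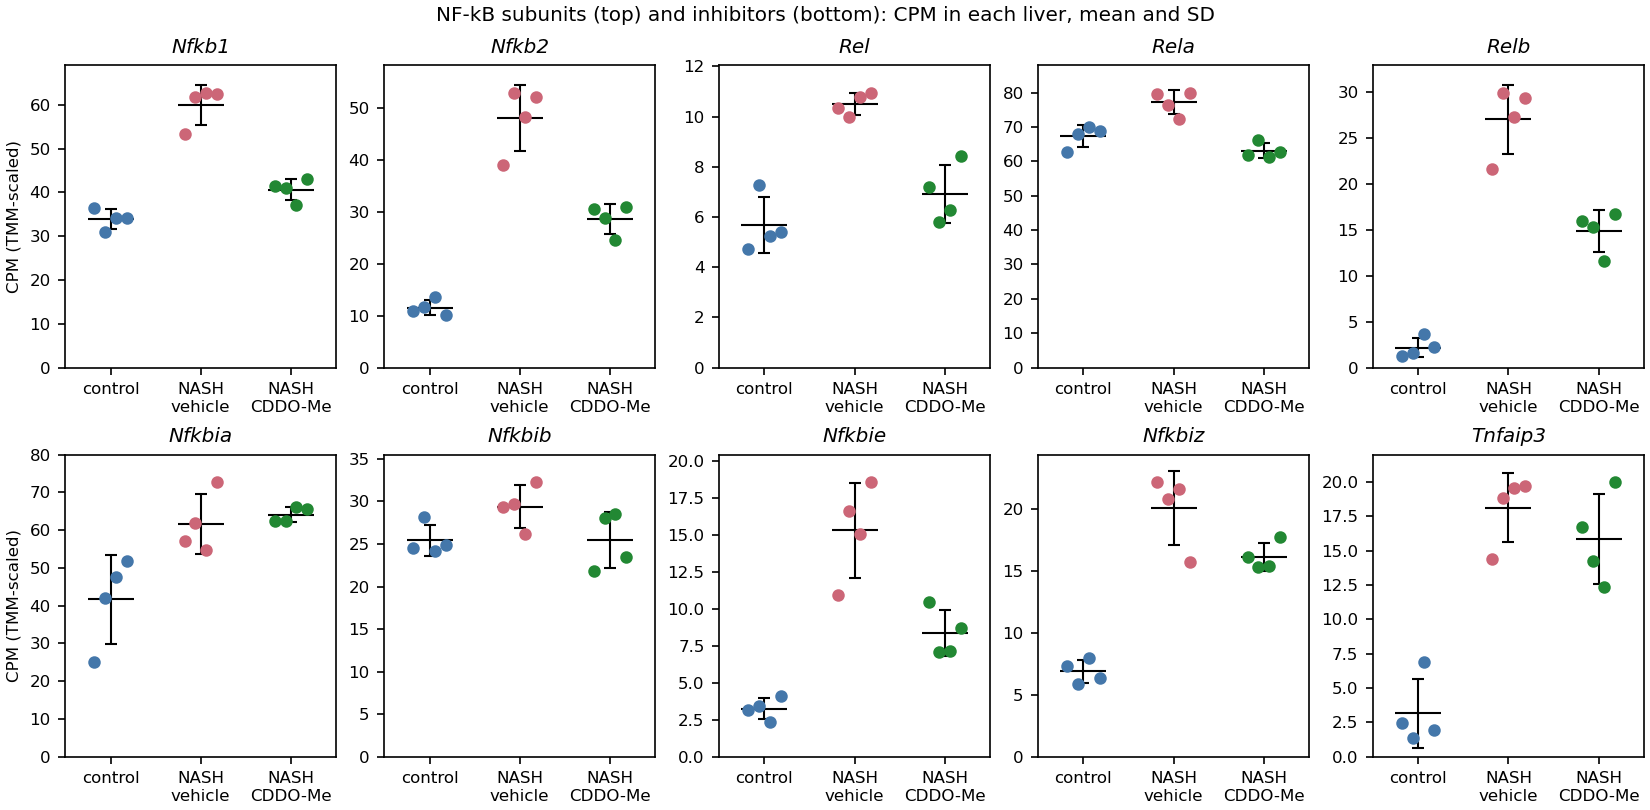
CPM of each gene in the 12 livers, 1 point per liver, with the group mean and SD; the vertical axes start at 0 and differ between panels. NASH vehicle livers are highest for the 5 subunits, while for Nfkbia the CDDO-Me livers (62.3 to 66.2 CPM) lie within the range of the NASH vehicle livers (54.7 to 72.7 CPM).

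Nfkbia, on chr12:55489410-55492647 (minus strand), encodes IkBα, which is degraded on IKK activation and made anew by NF-kB. It had 25.04, 42.1, 47.7 and 51.9 CPM in control livers. Levels were 57.0, 61.9, 54.7 and 72.7 CPM in NASH vehicle livers and 62.3, 62.3, 66.2 and 65.6 CPM in CDDO-Me livers. Control livers were below all others, and the 2 NASH groups overlapped. Nfkbia rose in NASH by 0.56 ± 0.17 (adjusted p = 0.0131) and was 0.62 ± 0.17 above control in CDDO-Me livers (adjusted p = 0.00962). CDDO-Me and NASH vehicle livers differed by 0.06, with a 95% interval from -0.31 to 0.43 (adjusted p = 0.859).

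Nfkbib, on chr7:28758251-28767512 (minus strand), encodes IkBβ, which binds many of the same dimers. Control livers had 24.5, 28.1, 24.2 and 24.9 CPM. NASH vehicle livers had 29.4, 29.7, 26.2 and 32.3 CPM and CDDO-Me livers 21.9, 28.0, 28.5 and 23.5 CPM. The groups overlapped, and no comparison passed the test. The 95% intervals were -0.01 to 0.43 for NASH vehicle against control (adjusted p = 0.0925), -0.43 to 0.01 for CDDO-Me against NASH vehicle (adjusted p = 0.182) and -0.22 to 0.22 for CDDO-Me against control (adjusted p = 0.999). Nfkbib shares its locus with Sirt2 on the opposite strand, which had a mean of 1713.5 reads per library.

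Nfkbie, on chr17:45555703-45563169 (plus strand), encodes IkBε, another inducible IkB. Its levels were 3.19, 3.41, 2.33 and 4.11 CPM in control livers. They were 10.97, 16.6, 15.1 and 18.6 CPM in NASH vehicle livers and 10.5, 7.12, 7.19 and 8.72 CPM in CDDO-Me livers. The groups did not overlap on the CPM scale, though NASH vehicle liver 1 and CDDO-Me liver 1 were nearly level. On the TPM scale those livers had 9.65 and 9.73, so the groups overlapped there. Nfkbie rose in NASH by 2.24 ± 0.21 (adjusted p = 1.35e-06) and was 1.83-fold lower with CDDO-Me, a log2 change of -0.87 ± 0.20 (adjusted p = 0.00934). It was the inhibitor called lower with CDDO-Me, and it stayed 1.37 ± 0.21 above control (adjusted p = 0.000122).

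Nfkbiz, on chr16:55811375-55838899 (minus strand), encodes IkBζ, a nuclear IkB that acts on p50 and can switch target genes on as well as off. Control livers had 7.37, 5.90, 7.96 and 6.39 CPM. NASH vehicle livers had 22.2, 20.9, 21.6 and 15.7 CPM and CDDO-Me livers 16.1, 15.3, 15.4 and 17.8 CPM. NASH vehicle liver 4 lay within the CDDO-Me range and the other three lay above it. Nfkbiz rose in NASH by 1.54 ± 0.13 (adjusted p = 6.39e-07) and was 1.22 ± 0.13 above control with CDDO-Me (adjusted p = 6.64e-06). The CDDO-Me difference from NASH vehicle was -0.31, with a 95% interval from -0.59 to -0.04 that is not adjusted for the number of genes (adjusted p = 0.105). It was called without NASH vehicle liver 4 (adjusted p = 0.0401) and by DESeq2 (adjusted p = 0.0494).

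Tnfaip3, on chr10:19000910-19015657 (minus strand), encodes A20, a ubiquitin-editing enzyme that shuts off signalling upstream of IKK. It had 2.46, 1.38, 6.88 and 1.92 CPM in control livers. Both diet groups were higher, with 14.4, 18.9, 19.6 and 19.7 CPM in NASH vehicle livers and 16.7, 14.3, 12.4 and 20.01 CPM in CDDO-Me livers. The NASH groups overlapped and both lay above every control liver. Control liver 3, which also had the most smooth muscle and macrophage marker RNA of its group, was the highest control liver. Tnfaip3 rose in NASH by 2.501 ± 0.40 (adjusted p = 0.000193), or by 3.22 without control liver 3. CDDO-Me livers differed from NASH vehicle livers by -0.19, with a 95% interval from -0.98 to 0.60 (adjusted p = 0.764), and from control by 2.31 ± 0.40 (adjusted p = 0.000498).

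On the per-length TPM scale, Nfkbia and Rela had the highest levels in every group. Control livers held 44.7 ± 14.4 TPM of Nfkbia and 42.4 ± 4.73 TPM of Rela, and these ranges overlapped. Nfkbib followed with 19.5 ± 1.61 TPM, then Nfkb2 with 5.57 ± 1.17 and Nfkb1 with 4.57 ± 0.506 TPM, which overlapped. Nfkbiz, Nfkbie, Rel, Relb and Tnfaip3 lay between 1.81 and 0.794 TPM, with each overlapping its neighbour. In NASH vehicle livers the order was Nfkbia (115 ± 18.1 TPM), Rela (85.3 ± 5.20 TPM), Nfkb2 (44.4 ± 8.10 TPM) and Nfkbib (39.2 ± 3.53 TPM), with the last pair overlapping. Relb was next with 18.6 ± 3.38 TPM and overlapped Nfkbie with 14.9 ± 3.74 TPM, and Rel was lowest with 4.30 ± 0.546 TPM. In CDDO-Me livers Nfkbia led with 102 ± 12.6 TPM over Rela with 59.0 ± 7.61 TPM, and Nfkbib with 29.2 ± 1.89 TPM overlapped Nfkb2 with 22.6 ± 4.93 TPM.

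Ratios of TPM within a liver do not depend on how libraries are scaled, and they were chosen after the values were seen, so they are given without a test. The ratio of Nfkbia to Rela was 0.681, 1.05, 1.16 and 1.27 in control livers. It was 1.17, 1.38, 1.28 and 1.55 in NASH vehicle livers and 1.73, 1.57, 1.87 and 1.73 in CDDO-Me livers. Each CDDO-Me liver was above each NASH vehicle liver, so IkBα transcripts per RelA transcript were highest under treatment. The ratio of Nfkb2 to Nfkb1, the precursors of p52 and p50, was 1.21 ± 0.15 in control livers, 3.16 ± 0.21 in NASH vehicle livers and 2.81 ± 0.15 in CDDO-Me livers. Relb to Rela was 0.012 to 0.036 in control, 0.166 to 0.244 in NASH vehicle and 0.115 to 0.158 in CDDO-Me livers. All 4 CDDO-Me livers were below the NASH vehicle livers and above the control livers in that ratio. Tnfaip3 to Rela, unlike Nfkbia to Rela, overlapped between these groups, at 0.070 to 0.105 in NASH vehicle and 0.079 to 0.126 in CDDO-Me livers. Nfkbie to Nfkbia was 0.101 to 0.143 in NASH vehicle and 0.057 to 0.091 in CDDO-Me livers.

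**Figure D3:**
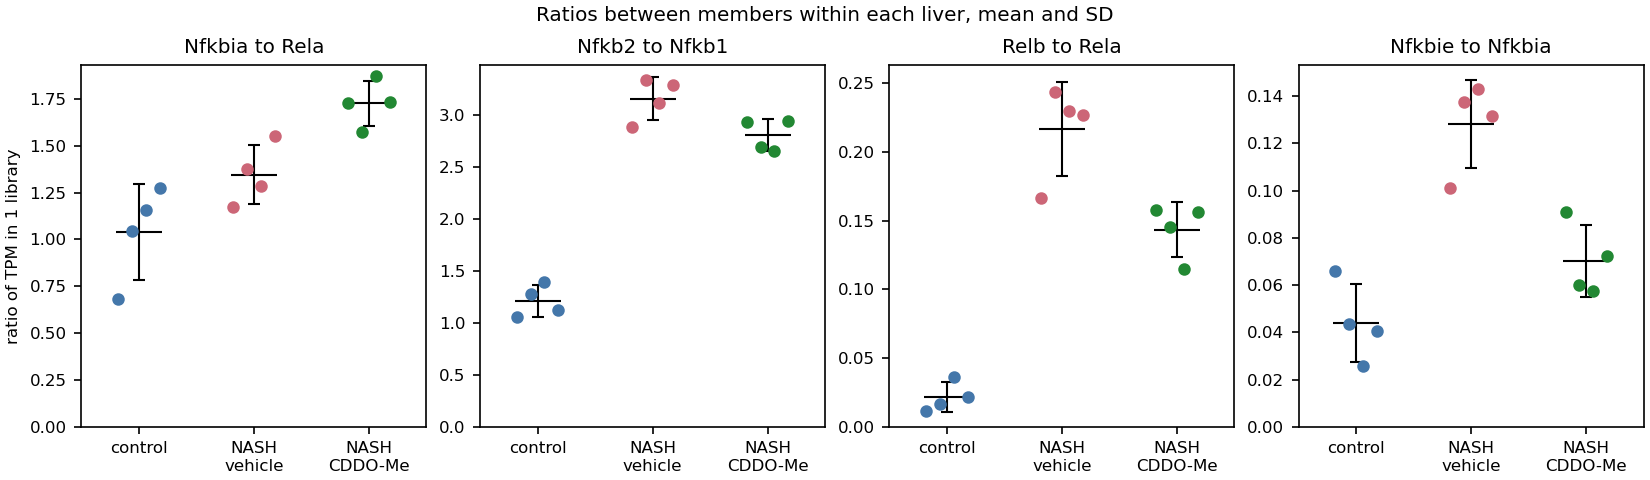
Ratios of TPM between pairs of genes in each of the 12 livers, 1 point per liver. The CDDO-Me livers are highest for Nfkbia to Rela, at 1.57 to 1.87, and lie between the other groups for Relb to Rela.

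Markers of macrophages and of some other cell types were mostly higher in NASH vehicle livers, and those of macrophages mostly lower with CDDO-Me. By call, endothelial markers did not follow that pattern. Bulk liver cannot tell fewer cells of a type from less RNA per cell. The 12 macrophage markers, among them Adgre1, Cd68 and Csf1r, summed to 124 to 250.3 TPM in control livers, 2735 to 5997 in NASH vehicle livers and 1277 to 3015 in CDDO-Me livers, and none was at 0. All 12 were higher in NASH vehicle than in control livers. With CDDO-Me, 8 of 12 were lower than in NASH vehicle livers and none was higher. Cholangiocyte markers summed to 37.6 to 266 TPM in control livers, 739 to 1877 in NASH vehicle livers and 516 to 1556 in CDDO-Me livers, with 6 of 8 higher in NASH vehicle livers and 2 of 8 lower with CDDO-Me. Dendritic cell markers summed to 2.07 to 3.44, 35.8 to 65.9 and 26.4 to 70.1 TPM, with 7 of 8 higher in NASH vehicle livers and 8 of 8 not called with CDDO-Me. For both lists NASH vehicle liver 1 was the lowest of its group and CDDO-Me livers 1 and 4 were the highest of theirs. T and NK cell markers summed to 11.6 to 35.6 TPM in NASH vehicle and 6.81 to 12.1 in CDDO-Me livers, where 4 of 10 were lower. The 11 hepatocyte markers were all lower in NASH vehicle than in control livers, and 1 was higher with CDDO-Me while 10 were not called. Of 8 endothelial markers, 5 were lower and 1 higher in NASH vehicle livers, and 5 were higher and 0 lower with CDDO-Me. Their summed TPM was 82.9 to 110 in control, 113 to 138 in NASH vehicle and 121 to 160 in CDDO-Me livers. On that scale the endothelial sums were thus higher in NASH vehicle than in control livers. Of 8 stellate cell markers, 6 were higher and 1 lower in NASH vehicle livers, and 1 was higher and 3 lower with CDDO-Me. All 4 neutrophil markers tested were higher in NASH vehicle livers, and 1 was lower with CDDO-Me. NASH vehicle liver 1 had the lowest macrophage sum of its group and also the lowest Nfkb1, Nfkb2, Relb, Nfkbie and Tnfaip3. By CPM it had the highest Nfkbiz of its group, at 22.2 CPM, and Rel, Rela, Nfkbia and Nfkbib were not lowest in it. CDDO-Me livers 1 and 4 had the highest macrophage sums of theirs and, by CPM, the highest Nfkb1, Nfkb2, Relb, Rel, Nfkbie, Nfkbiz and Tnfaip3. They had the lowest Nfkbib, at 21.9 and 23.5 CPM, while Rela was highest in CDDO-Me liver 2 and Nfkbia in CDDO-Me liver 3. Between the NASH vehicle and CDDO-Me groups, NASH vehicle liver 1 and CDDO-Me liver 4 had the closest macrophage sums, 2735 and 3015 TPM. Nfkb2 was 32.5 and 27.7 TPM in that pair, Relb 13.5 and 10.6 TPM, Rela 81.2 and 67.5 TPM, and Nfkbie 9.65 and 8.44 TPM. Nfkb1, Rel, Nfkbib and Nfkbiz were also lower in the CDDO-Me liver. The pair went the other way for Nfkbia, at 95.3 and 117 TPM, and for Tnfaip3, at 5.69 and 8.50 TPM. The part of RNA from these cell types in the changes of the 10 genes was not tested.

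**Figure D4:**
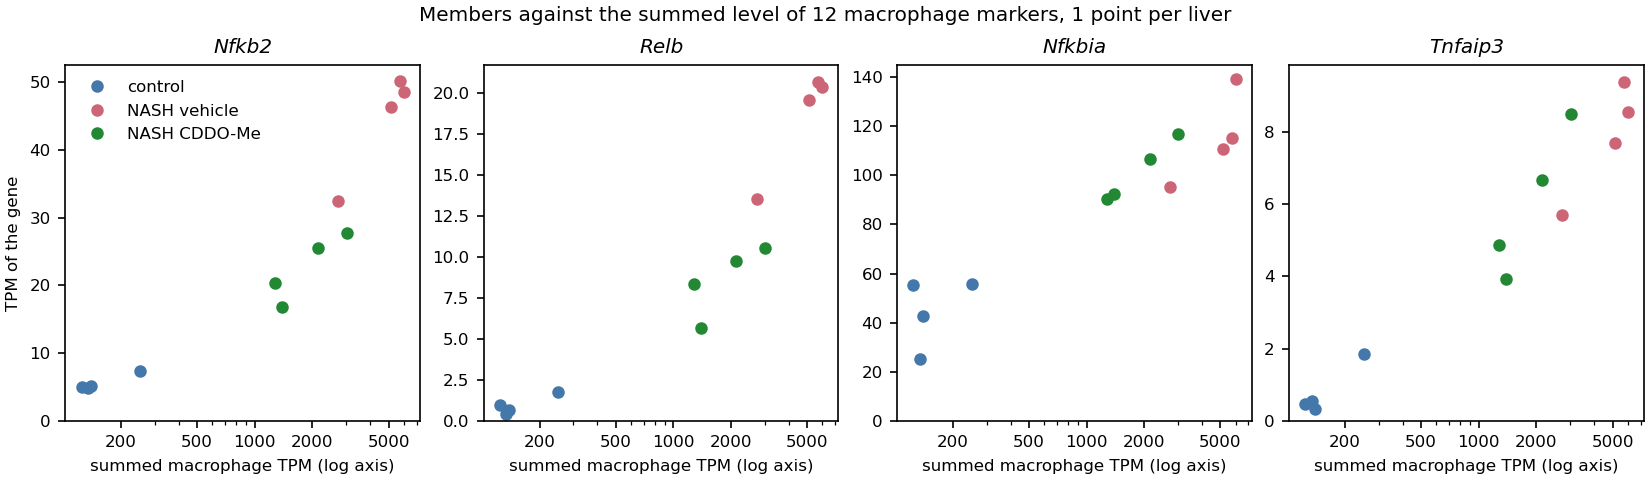
TPM of Nfkb2, Relb, Nfkbia and Tnfaip3 against the summed TPM of 12 macrophage markers on a log axis, 1 point per liver, coloured by group. NASH vehicle liver 1, with 2735 TPM of marker RNA, lies beside the CDDO-Me livers and below the other 3 livers of its group for Nfkb2 and Relb.

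Upstream of the subunits, a list of 12 genes held the IKK complex and other kinases that act on the pathway. In NASH vehicle livers 4 were higher, 4 lower and 4 not called, with a median log2 fold change of 0.015. That share is near the 59.7% of all tested genes called in either direction, and library totals gave 9 higher and 0 lower. The higher genes included Map3k14, which encodes the non-canonical kinase NIK (4.25 ± 0.88 CPM in control, 15.8 ± 0.92 in NASH vehicle, log2 1.89 ± 0.15, adjusted p = 3.03e-07), Map3k8, which encodes TPL2 (1.83 ± 0.23), and Ikbke, which encodes IKKε (0.99 ± 0.17). Chuk, which encodes IKKα, had 128 ± 17.5 CPM in control and 77.6 ± 11.5 in NASH vehicle livers, a log2 change of -0.72 ± 0.13 (adjusted p = 0.00028). That decrease depended on the scaling, since library totals gave -0.09. Ikbkg, which encodes NEMO, the regulatory subunit of IKK, changed by -0.30 ± 0.12 (adjusted p = 0.0459) and by 0.34 with library totals, so its direction turned with the scaling, and it was not called in 7 of 8 runs that each left out 1 library (adjusted p up to 0.145). With library totals, 0 genes of the kinase, adaptor and regulator lists were lower in NASH vehicle livers.

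With CDDO-Me, 5 of the 12 IKK and kinase genes were higher than in NASH vehicle livers, 2 were lower and 5 were not called, against 9.39% of all genes higher. Ikbkg rose from 72.7 ± 4.8 to 121 ± 7.5 CPM, with a log2 change of 0.73 ± 0.12 (adjusted p = 0.00128). Ikbkg overlaps G6pdx on the opposite strand, and whether the counts separate strands is not given in the sources used here. Chuk rose by 0.51 ± 0.13 (adjusted p = 0.0153), Nlk, which encodes Nemo-like kinase, a MAPK-like kinase that is not an IKK activator, rose by 0.40 ± 0.11 (adjusted p = 0.0274), and Map3k14 fell by 0.45 on the log2 scale (adjusted p = 0.0422). Leaving out 1 library at a time gave 1 to 5 higher and 0 to 3 lower genes, and library totals gave 2 higher and 2 lower. The call for Ikbkg held in all of these, with adjusted p of at most 0.007. Of 8 such runs, Map3k14 was not called in 6, Nlk in 5 and Chuk in 2, and Nlk was not called with library totals (adjusted p = 0.25).

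Among 24 receptor adaptors and ubiquitin ligases, 13 were higher, 6 lower and 5 not called in NASH vehicle livers (median log2 fold change 0.30), where 59.7% of all tested genes were called. Card9, an adaptor of fungal receptors in myeloid cells, rose by 3.08 ± 0.28, though 56.8% of its reads were unique, and Irak3, an inhibitory IRAK, rose by 2.28 ± 0.20. Sharpin, a subunit of the linear ubiquitin ligase, changed by -0.70 ± 0.08 (adjusted p = 5.99e-06), or by -0.06 with library totals. With CDDO-Me 1 gene was higher, 4 were lower and 19 were not called, a share near the 16.6% of all tested genes called. Irak1, a kinase of the Toll-like and IL-1 receptor pathway, was the higher one, at 61.1 ± 2.0 CPM in NASH vehicle and 83.8 ± 4.2 in CDDO-Me livers (log2 0.46 ± 0.07, adjusted p = 0.000649). The lower ones were Birc3, which encodes cIAP2 (-0.55 ± 0.15), Ripk1, a kinase of TNF receptor signalling (-0.34 ± 0.09), Rnf31, the catalytic subunit of the linear ubiquitin ligase (-0.35 ± 0.10), and Card9 (-0.85 ± 0.25). Without 1 library at a time, 0 to 4 of these genes were lower, and of the 8 runs Card9 was not called in 6, Rnf31 in 5, Birc3 in 4 and Ripk1 in 3, while Irak1 was called in all. Irak1 was not called by log2(TPM + 1) (0.23, adjusted p = 0.111).

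Of 20 other IkB proteins and negative regulators, 9 were higher, 6 lower and 5 not called in NASH vehicle livers (median log2 fold change 0.27), against 59.7% of all tested genes called. Nfkbid, which encodes the nuclear IkBNS, rose by 3.40 ± 0.35, Tnip1, which encodes the A20 partner ABIN1, by 2.08 ± 0.16, and Zc3h12a, which encodes the RNase Regnase-1, by 1.60 ± 0.16. Bcl3, a nuclear IkB that binds p50 and p52, rose from 35.9 ± 0.92 to 54.0 ± 4.2 CPM and was 38.5 ± 2.6 CPM with CDDO-Me, where it changed by -0.49 ± 0.08 (adjusted p = 0.000867). With CDDO-Me 1 gene was higher, Nkiras1 (0.49 ± 0.10, adjusted p = 0.00562), which encodes a small GTPase that restrains IkBβ degradation. The 2 lower genes were Bcl3 and Pdlim2 (-0.94 ± 0.29, adjusted p = 0.0402), and 17 were not called, so the share called was near the 16.6% of all tested genes. Bcl3 and Nkiras1 were called in all 8 runs that left out a library, and Pdlim2 was not called in 6 of them. Nkiras1 was not called with library totals (0.33, adjusted p = 0.0551) or by log2(TPM + 1) (0.24, adjusted p = 0.118).

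The list of NF-kB target genes held 30 genes, of which 29 were tested. In NASH vehicle livers 25 were higher, 2 were lower and 2 were not called, with a median log2 fold change of 2.73, where 29.6% of all tested genes were higher. Lcn2, which encodes lipocalin 2, rose from 1.52 ± 0.49 to 323 ± 68 CPM, a log2 change of 7.72 ± 0.25 (adjusted p = 2.74e-10). Icam1, a leukocyte adhesion molecule, rose by 2.13 ± 0.11 (adjusted p = 1.28e-08), and Ccl2, a monocyte attractant, rose by 4.63 ± 0.25, though 40.5% of its reads were unique. The lower genes, named outside the fixed rule, were Sod2, which encodes mitochondrial superoxide dismutase, and Cflar, which encodes the caspase-8 inhibitor c-FLIP, and Cflar was not called with library totals (adjusted p = 0.96). With CDDO-Me 10 target genes were lower, 1 was higher and 18 were not called (median -0.45), where 7.24% of all tested genes were lower and 9.39% higher. The higher gene was Sod2 (log2 0.45 ± 0.14, adjusted p = 0.0464, or 0.0652 with library totals), and it was not called in 6 of 8 runs that left out a library (adjusted p up to 0.152). Lcn2 was 135 ± 22 CPM, a log2 change of -1.25 ± 0.18 (adjusted p = 0.000481). Cxcl16, a chemokine for T and NK cells, changed by -0.96 ± 0.16 (adjusted p = 0.00159) and Icam1 by -0.45 ± 0.10 (adjusted p = 0.0092). Bcl2a1d, an anti-apoptotic BCL2 family gene, changed by -1.77 ± 0.29 (adjusted p = 0.00131), with 32.7% of its reads unique. Ccl2 was 7.18 ± 1.2 CPM in NASH vehicle and 8.40 ± 0.72 CPM in CDDO-Me livers and was not called (adjusted p = 0.456). Leaving out 1 library at a time, 8 to 10 target genes were lower with CDDO-Me. Against control livers, CDDO-Me livers had 22 target genes higher, 2 lower and 5 not called, with a median log2 fold change of 2.41. Of all tested genes, 26.2% were higher in that comparison.

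**Figure D5:**
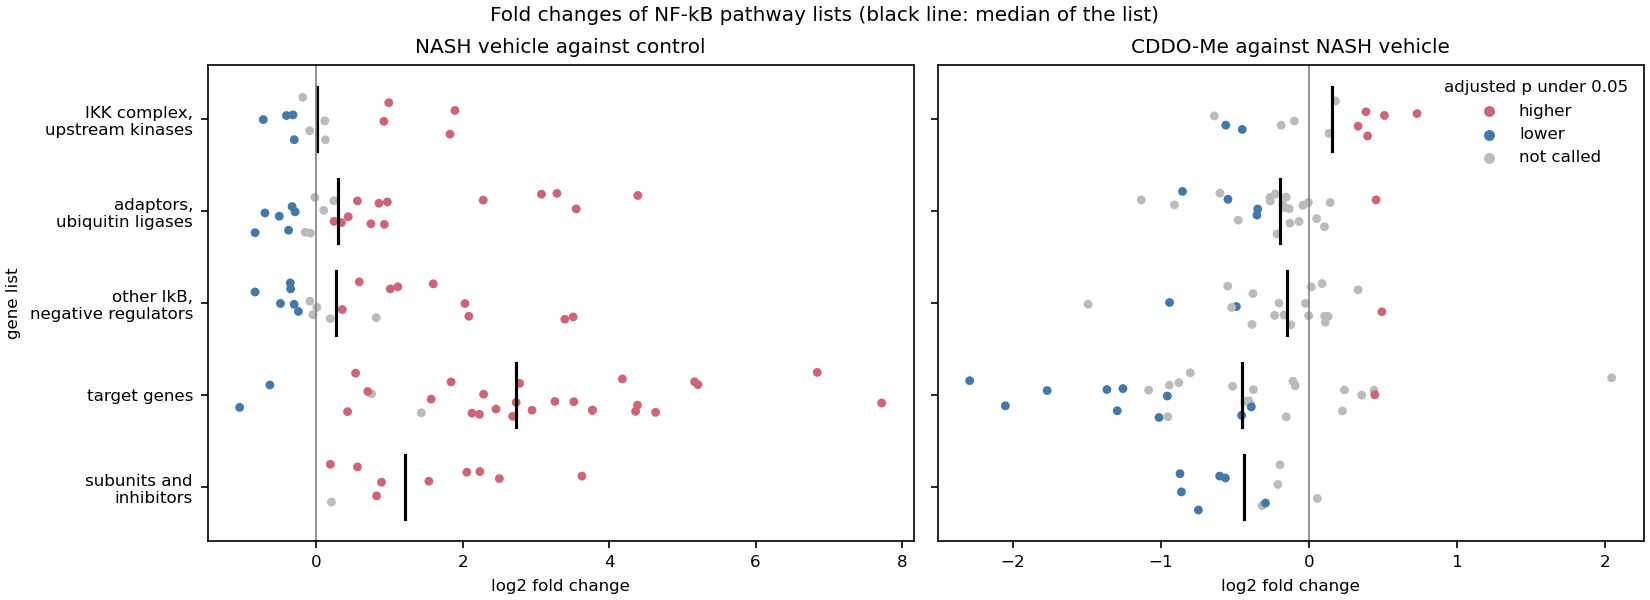
Log2 fold changes of the 4 pathway lists and of the 10 subunit and inhibitor genes, 1 point per gene, coloured by call, with a black line at the median. The target genes have a median of 2.73 in NASH vehicle against control and -0.45 in CDDO-Me against NASH vehicle.

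For the 3 genes with the widest range between group means, the genes with the nearest profile over the 12 livers were sought among 12544 genes by the root mean square difference of centred log2 CPM. Relb was nearest to Syk, a kinase of immune receptor signalling, at 0.20 and to Anxa2 at 0.21. Tnfaip3 was nearest to Cdc25b and Abr, both at 0.19. Nfkbie was nearest to Lhfp at 0.14 and Igfbp7 at 0.18. Within the 10 genes, the nearest profiles were those of Rela and Nfkbib, at 0.12, followed by Nfkb1 and Rel, at 0.21. Rela and Nfkbib also had the smallest ranges between group means of the 10 genes, 0.29 and 0.21 on the log2 scale. The measure is not scaled by range, so flat profiles lie near each other.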

How the data were processed

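Poly(A) RNA of 12 livers was sequenced as 75 bp paired-end reads, per the labels' protocols. The authors deposited 1 table per library with raw read counts per gene (total, unique, exon and intron), TPM, RPKM and fractions of reads, per the file headers. The build is GRCm38, per the submitters' processing notes. The aligner, counter, strand setting and treatment of read pairs were not given in the sources used here. Total gene read counts were fitted in edgeR 4.0.16 (R 4.3.3) with filterByExpr (count 10, total 15, large n 10), TMM and 1 mean per group over all 12 libraries. Prior counts were 2 for log2 CPM and 0.125 for fold changes. The SE is the absolute log2 fold change over the root of the F statistic. limma 3.58.1 and DESeq2 1.42.0 served as alternatives, with scripts tested on simulated data. RPKM and the fractions entered no comparison. The 10 genes and all lists were chosen with earlier results of these data known. All 10 genes are named. From each pathway list the 3 genes of lowest p in each of the first 2 comparisons are named, plus those called with CDDO-Me where a list has at most 5. The pathway lists were run under the alternatives after their main values had been seen.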

Additional observations from a re-analysis of the deposited data

Results flagged for a closer look

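Of 30 sets of 4 livers (10 genes in 3 groups), 3 had 1 liver far from the other 3, and chance gives about 1 in 20. Nfkb1 was 53.3 CPM in NASH vehicle liver 1, with the other livers of the group at 61.8 to 62.8 CPM. Tnfaip3 was 14.4 CPM in NASH vehicle liver 1, with the others at 18.9 to 19.7 CPM. That liver also had the lowest macrophage marker sum of its group, and the part of this in the values was not tested. Nfkbib was 28.1 CPM in control liver 2, with the others at 24.2 to 24.9 CPM.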

How the results depend on the processing

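Each comparison was repeated under 23 alternatives. The counts of genes called were 7 to 10 higher in NASH vehicle than in control, 6 to 8 lower with CDDO-Me and 5 to 10 higher with CDDO-Me than in control, apart from the following. Intron reads, which allowed 8 of the 10 genes to be tested, gave 4 higher in NASH vehicle, 0 lower with CDDO-Me and 4 higher with CDDO-Me than in control. A minimum change of 1.5-fold gave 0 lower with CDDO-Me. Leaving out each library in turn gave 8 to 9, 4 to 6 and 7 to 7 genes. The replicate block gave 9, 6 and 7 genes, as without it. Same-numbered libraries correlated at -0.22 to 0.19, over 0.1 in 2 of 12 pairs, and none (0 of 12) resembled its own number most. No pairing by number was visible, though so few livers per group could hide one. Direction turned for Rela with CDDO-Me against NASH vehicle (0.19 with intron reads, adjusted p = 0.719). Against control, CDDO-Me turned Nfkb2 to -0.24 and Rela to 0.33 with intron reads, and neither was called. Rela turned to 0.37 with library totals, 0.47 with log2(TPM + 1) and 0.48 with log2(TPM + 0.1), and was called higher in each. Nfkbib, with equal means in these groups, was 0.46, 0.56 and 0.58 under those 3 settings, and called in each. Nfkbia with CDDO-Me against NASH vehicle, not called in any of these, went from 0.06 to -0.10 with library totals, -0.17 with log2(TPM + 1) and -0.18 with log2(TPM + 0.1). The cause was not tested. The share of called genes that were higher went from 56.5% to 36.8% with library totals for CDDO-Me against NASH vehicle and from 52.7% to 88.5% for CDDO-Me against control. Rel and Tnfaip3 had too few intron reads for that test.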
